A study of Homo sapiens with 4 samples.

Results

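The cytosolic ribosome is built from ribosomal RNAs and a large set of ribosomal proteins. RPS genes encode proteins of the small subunit, which reads the mRNA, and RPL genes encode proteins of the large subunit, which joins amino acids. Because a growing cell makes these proteins in equal amounts and without pause, their promoters are usually taken as constitutive. They are also unusual in sequence. Their transcripts start at a C inside a run of pyrimidines, the 5′ terminal oligopyrimidine (TOP) motif, through which mTOR signalling controls their translation. The genes described here were the GENCODE protein-coding genes of chromosomes 1 to 22 whose symbol is RPL or RPS followed by a digit, or RPLP0, RPLP1, RPLP2 or RPSA. RPS6 kinase genes and paralogs with an L after the number were left out. The rule took 76 of 19111 protein-coding genes, on 20 chromosomes. Of these, 30 encode small subunit proteins and 43 encode large subunit proteins. RPS19BP1, which encodes a binding partner of RPS19, fits the rule by its symbol alone. The other 2 are the read-through genes RPS10-NUDT3 and RPL17-C18orf32, whose promoter peaks are those of RPS10 and RPL17, so that 74 distinct promoters remained.

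ATAC-seq, which uses a transposase to cut accessible DNA, mapped open chromatin in HK1, an established line of nasopharyngeal carcinoma cells. The 4 groups were untreated wild-type cells (WT), WT cells given IFN-γ for 24 h (WT-IFN-γ), cells edited with a guide RNA to knock out the ETS-family transcription factor gene FLI1 (sgFLI1, FLI1-KO) and FLI1-KO cells given IFN-γ (sgFLI1-IFN-γ). Each group held 1 library, which leaves no replicate error to test a difference against, so no p-value is given. Intervals of levels and ratios cover the counting error of tags only. Those of shares and medians rest on the number of genes, and none covers variation between replicates. The study names 2 guides against FLI1, the labels do not say which one made this line, and whether it is a single clone is not given in the sources used here. Where 4 values follow each other below, they stand for the untreated and treated WT library, then for the untreated and treated FLI1-KO library. The lists held between 59629 and 67470 peaks, and the mean tag density was 8.04, 8.84, 6.93 and 6.86 tags per kb. The peak lists could not check the knockout, as FLI1 and the 10 kb before it held 4, 5, 5 and 4 peaks. Among 6 squamous epithelium markers, KRT17 (67, 64, 39 and 18 tags) and EPCAM (56, 66, 35 and 31) had a peak within 1 kb of the main start site in every library, and the other 4 had none there. Within 3 kb of any start site, TP63, KRT5 and CDH1 also had one in every library, and KRT14 had none. The T cell markers CD3E, CD3D and CD2 had no peak under either definition, whereas the fibroblast gene COL1A1 had one of 132 to 172 tags within 3 kb in every library. In bulk cells, fewer open cells and less accessibility per cell cannot be told apart.

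The start sites of the members with the most and the least open promoters show the shared design of the family. Each sequence below runs from 80 bases before to 15 bases after the first base of the main transcript in GRCh38, 5′ to 3′ on the coding strand. Capitals mark the unbroken run of pyrimidines that begins at the first transcribed base. RPL28 and RPL13A were among the 5 members of highest mean promoter level, and RPL38, RPL31 and RPL34 came last.
RPL28, chr19:55385852-55385946, plus strand: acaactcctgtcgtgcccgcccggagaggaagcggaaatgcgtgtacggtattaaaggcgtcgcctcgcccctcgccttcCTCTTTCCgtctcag
RPL13A, chr19:49487528-49487622, plus strand: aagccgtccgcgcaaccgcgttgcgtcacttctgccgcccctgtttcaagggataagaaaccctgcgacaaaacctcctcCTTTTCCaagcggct
RPL38, chr17:74203598-74203692, plus strand: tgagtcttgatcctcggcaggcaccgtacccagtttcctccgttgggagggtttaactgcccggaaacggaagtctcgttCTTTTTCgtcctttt
RPL31, chr2:101002209-101002303, plus strand: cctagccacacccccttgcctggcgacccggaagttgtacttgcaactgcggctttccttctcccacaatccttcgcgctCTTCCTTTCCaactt
RPL34, chr4:108620496-108620590, plus strand: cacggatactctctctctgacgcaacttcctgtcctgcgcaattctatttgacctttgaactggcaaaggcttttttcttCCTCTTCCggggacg
All 5 of these begin with C and a run of 7 to 10 pyrimidines. RPL17, also among the 5 lowest and shown next, begins with A and has no such run at the annotated first base. Its printed sequence holds a long pyrimidine stretch shortly before that base, so the lack of a run depends on the annotated start. A weak box of adenines and thymines stands upstream in RPL28.

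The next promoters are shown because their level differed 1.5-fold or more in at least 1 comparison between libraries, described below.
RPSA, chr3:39406640-39406734, plus strand: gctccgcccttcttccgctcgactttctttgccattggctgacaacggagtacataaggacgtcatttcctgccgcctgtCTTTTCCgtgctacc
RPL9, chr4:39458908-39459002, minus strand: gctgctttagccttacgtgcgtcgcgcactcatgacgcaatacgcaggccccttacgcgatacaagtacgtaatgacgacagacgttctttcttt
RPS3A, chr4:151099548-151099642, plus strand: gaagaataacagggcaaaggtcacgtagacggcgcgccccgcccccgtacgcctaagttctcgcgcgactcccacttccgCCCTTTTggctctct
RPS12, chr6:132814489-132814583, plus strand: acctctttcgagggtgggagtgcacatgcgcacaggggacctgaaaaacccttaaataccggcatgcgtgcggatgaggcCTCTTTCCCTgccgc
RPS6, chr9:19380222-19380316, minus strand: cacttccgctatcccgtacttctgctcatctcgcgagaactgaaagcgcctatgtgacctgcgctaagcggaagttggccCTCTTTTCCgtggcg
RPL13, chr16:89560602-89560696, plus strand: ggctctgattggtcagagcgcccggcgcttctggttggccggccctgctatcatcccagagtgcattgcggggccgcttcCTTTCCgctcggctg
RPL26, chr17:8383179-8383273, minus strand: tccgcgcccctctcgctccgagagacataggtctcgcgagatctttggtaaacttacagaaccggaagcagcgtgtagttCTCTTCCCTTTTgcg
RPL17, chr18:49492451-49492545, minus strand: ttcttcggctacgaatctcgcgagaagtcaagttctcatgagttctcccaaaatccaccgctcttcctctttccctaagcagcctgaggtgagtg
RPS15, chr19:1438316-1438410, plus strand: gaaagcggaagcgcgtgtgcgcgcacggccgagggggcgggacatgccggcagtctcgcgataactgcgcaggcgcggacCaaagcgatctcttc
RPL36, chr19:5690215-5690309, plus strand: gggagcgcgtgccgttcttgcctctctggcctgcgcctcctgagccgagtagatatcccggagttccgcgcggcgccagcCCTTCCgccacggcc
RPS6, RPS3A, RPS12, RPSA, RPL13, RPL26 and RPL36 carry the pyrimidine run at the first base, the longest of them 12 bases in RPL26. RPL9 and RPL17 begin with a purine at the annotated base, and RPS15 has C followed by a purine.

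Of the features searched, the 5′ TOP start differed most in share between members and other genes. C at the first base followed by at least 4 pyrimidines was found in 55 of 74 member promoters, which is 74.3% with a 95% Wilson interval of 63.3 to 82.9. It was found in 4.55% of all 19111 protein-coding promoters and in 5.46% of the 10799 with a peak in all 4 libraries. Allowing the run to begin within 5 bases of the annotated start raised the count to 63 of 74 members (85.1%), against 21.8% of all promoters. C was the first base in 59 members (79.7%) and in 10.6% of all genes. The 19 members without the run at the exact first base included RPL3, RPL4, RPL9, RPL10A, RPL15, RPL17, RPL19, RPL23, RPL23A, RPL27, RPL32, RPS7, RPS15, RPS26, RPS28 and RPS19BP1. RPS19BP1 is the member that encodes no ribosomal protein. The median of the mean levels was 16.2 for the 55 members with the run and 15.9 for the 19 without it.

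**Figure D1:**
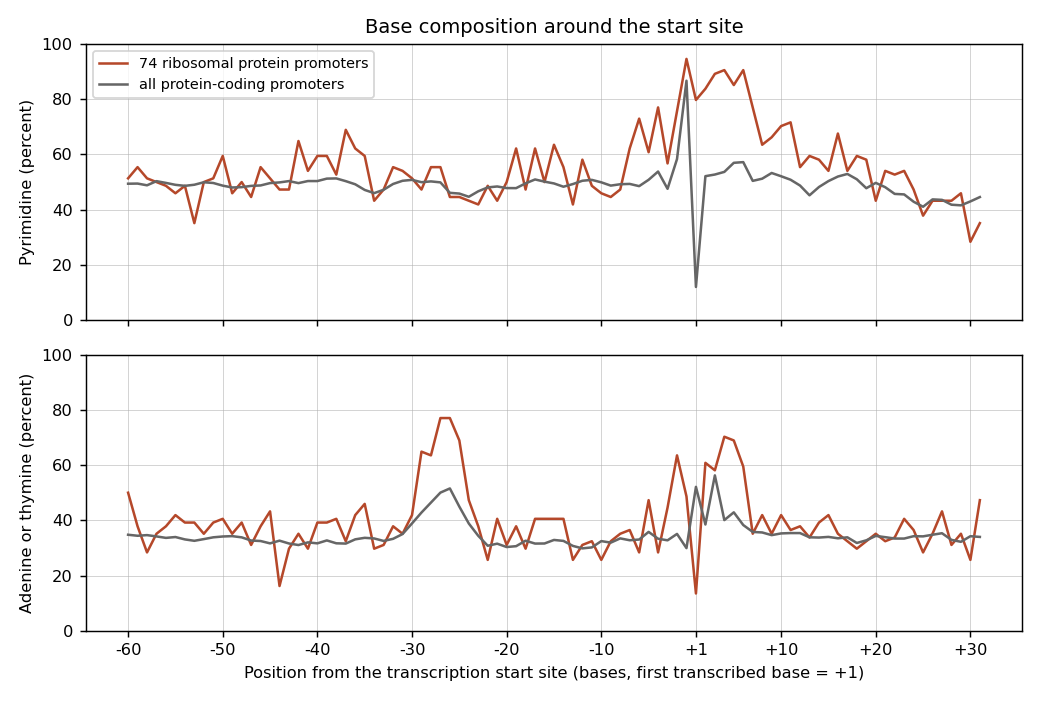
Share of promoters with a pyrimidine (upper panel) or with adenine or thymine (lower panel) at each base from 60 before to 31 after the transcription start site, for the 74 ribosomal protein promoters and for all protein-coding promoters. At the first transcribed base 79.7% of members and 12.02% of all promoters have a pyrimidine, and at 27 bases before it 77.0% of members and 50.03% of all promoters have adenine or thymine.

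Upstream of the start, members were rich in adenine and thymine where a TATA box would lie, though few had the box itself. From 32 to 24 bases before the start, on average 57.1% of bases were adenine or thymine, against 42.4% over all genes and 36.4% over genes with a peak in all 4 libraries. TATAAA on the coding strand, between 40 and 20 bases before the start, was found in 3 members (4.05%, interval 1.39 to 11.3) and in 3.87% of all promoters. CpG islands are stretches where the dinucleotide CG is not depleted. The observed over expected CpG ratio from 250 bases before to 50 after the start was above 0.6 in all 74 members, with a median of 0.92, against 91.1% of the promoters with a peak in all 4 libraries (median 0.87) and 67.9% of all genes.

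Binding motifs were searched as exact letters on both strands, from 250 bases before to 50 after the start. CCGGAAG, the letters preferred by ETS factors, of which FLI1 is one, was in 25 members (33.8%, interval 24.05 to 45.1), in 14.2% of all promoters and in 21.9% of those with a peak in all 4 libraries. AAGATGGC, the YY1 motif, was in 10 members (13.5%, 7.51 to 23.1), against 4.07% and 6.31%. The 2 intervals lie above both shares. GGGCGG, the SP1 motif, went the other way: 43 members held it (58.1%, 46.7 to 68.7), against 77.0% of the promoters with a peak in all 4 libraries, although the share over all genes, 61.7%, lay inside the interval. CCAAT, bound by NF-Y, was in 26 members (35.1%) and 35.8% of all promoters. The NRF1 motif GCATGCGC was in 6, the cyclic AMP response element TGACGTCA in 4 and the E-box CACGTG in 5 members, with intervals that held the share over all genes for CRE and the E-box, 2.72% and 8.69%, and for NRF1, 4.202%. Matches of 2 different motifs overlapped in 1 member. A match shows letters and not a bound factor.

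**Figure D2:**
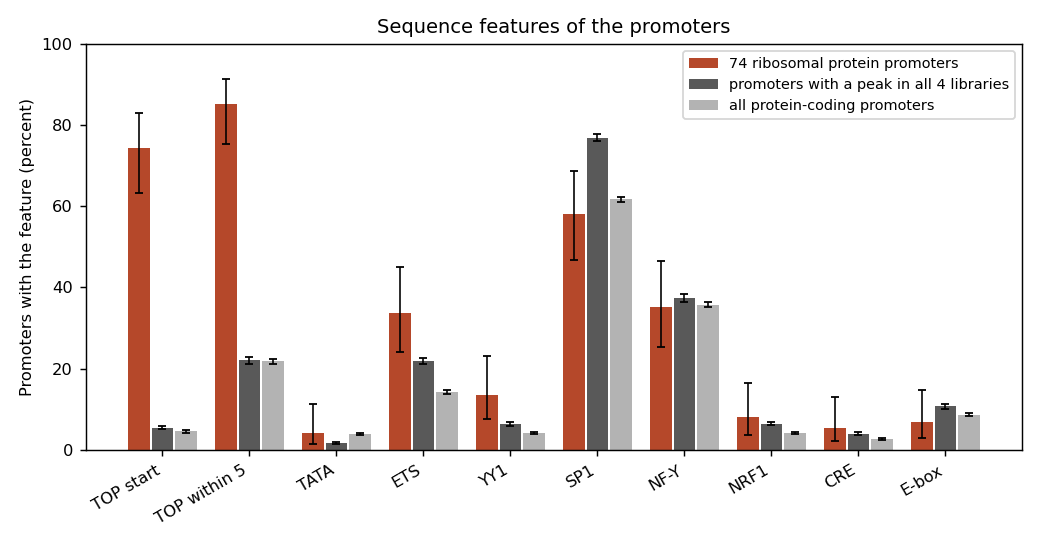
Share of promoters with each sequence feature, in percent, for the 74 ribosomal protein promoters, the 10799 promoters with a peak in all 4 libraries and all 19111 protein-coding promoters. Bars start at 0 and error bars are 95% Wilson intervals, and the pyrimidine start (TOP) stands at 74.3% in members against 4.55% of all genes.

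In 19 of the 25 members with CCGGAAG, the motif lay within 50 bases of a peak summit in at least 1 library. The same share was not computed for other promoters with these letters, so the count cannot be read as particular to the family. RPL32, RPL6 and RPL27A are 3 of the 4 members in which it lay nearest, at 3, 4 and 5 bases from the closest summit of any library. In RPL32, with the motif centre at −48 bases, that was the summit at −45 bases in sgFLI1. In each other library its summit lay at −220 bases. These 3 promoters are shown over the same window, here with every CCGGAAG, or its reverse complement, in capitals.
RPL32, chr3:12841551-12841645, minus strand: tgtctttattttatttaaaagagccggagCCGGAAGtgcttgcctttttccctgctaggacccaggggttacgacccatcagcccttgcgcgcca
RPL6, chr12:112409591-112409685, minus strand: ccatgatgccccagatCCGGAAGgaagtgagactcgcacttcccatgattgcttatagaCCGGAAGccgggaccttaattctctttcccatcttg
RPL27A, chr11:8682712-8682806, plus strand: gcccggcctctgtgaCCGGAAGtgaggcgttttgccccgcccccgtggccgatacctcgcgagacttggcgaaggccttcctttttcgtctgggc
RPL6 holds the letters at 2 places, both before the annotated start.

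All 74 promoters had a peak with its summit within 1 kb of the main start site in each of the 4 libraries. A share of 74 of 74 is 100% with a Wilson interval of 95.1 to 100. Over all protein-coding genes the share was 60.2%, 61.1%, 60.4% and 59.7% in the 4 libraries, and 56.5% had a peak in all of them. Presence of a peak thus did not vary within the family, and the values below concern its height. The peak covered the start site itself in every library for 73 of the 74 members. By the authors' −log10 q, the median member stood at percentile 97.1, 96.6, 94.1 and 95.7 of its list. The lowest was RPL36 at percentile 45.4 in sgFLI1-IFN-γ.

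Peak height was compared as the promoter level, the number of tags piled up at the summit divided by the tags per kb of that library. Member promoters held 59 to 226 tags in WT, 55 to 233 and 54 to 189 in the next libraries and 45 to 166 in sgFLI1-IFN-γ. Their median level was 17.8, 15.95, 16.6 and 15.1. Over all promoters with a peak it was 12.2, 11.4, 12.1 and 11.1. The members thus lay above the typical open promoter in each library, yet not at the top: the median member stood at percentile 81.5, 77.5, 73.8 and 75.6 of all listed promoters, and 62, 60, 63 and 63 of the 74 exceeded the median of all. The 30 small subunit genes had a median of 17.5 in WT and 15.1 in sgFLI1-IFN-γ, and the 43 large subunit genes had 18.3 and 15.3. The large subunit genes reached further at both ends, from 7.34 to 28.1 in WT, where the small subunit genes ran from 8.70 to 24.4.

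**Figure D3:**
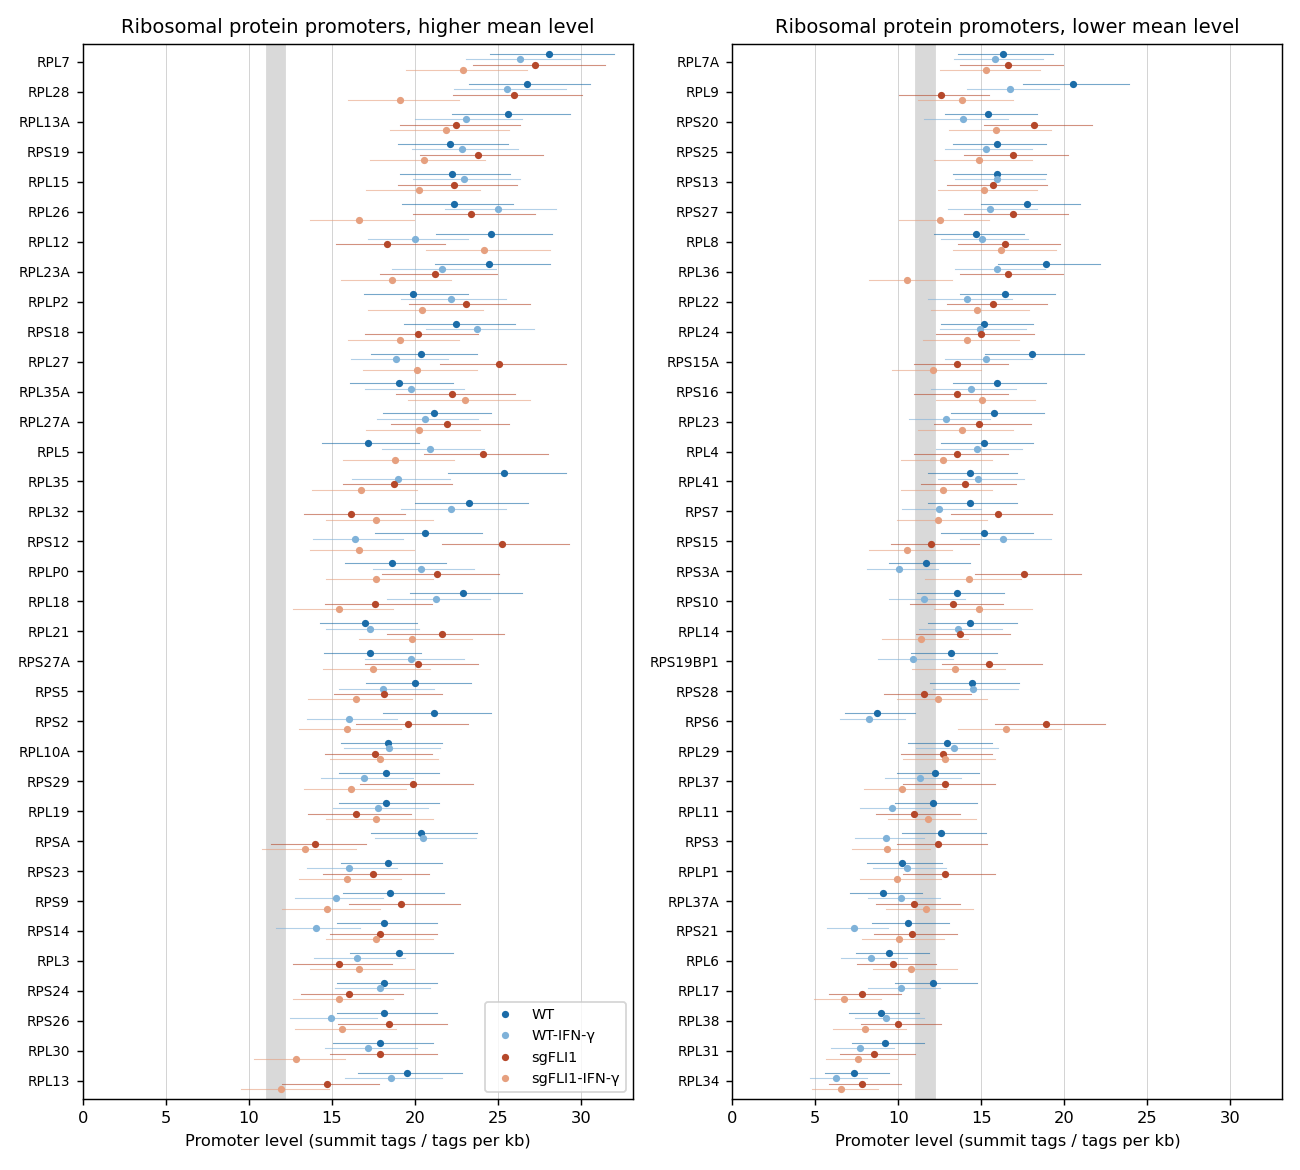
Promoter level of 70 of the 74 members in the 4 libraries, ordered by their mean, with the 35 higher ones on the left. Points are single libraries, bars are 95% Poisson counting intervals and the grey band spans the medians of all listed promoters, 11.1 to 12.2; RPL7 leads and RPL34 comes last, and RPS6 is the member whose 2 genotypes stand farthest apart.

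RPL7, RPL28, RPL13A and RPS19 were among the 5 members with the highest mean levels. RPL7 held 226, 233, 189 and 157 tags, a mean level of 26.2. RPL28 held 215, 226, 180 and 131 tags. RPL13A, whose protein is known to leave the ribosome in IFN-γ-treated myeloid cells to repress translation, held 206, 204, 156 and 150 tags. RPS19, the gene most often mutated in Diamond-Blackfan anaemia, held 178, 202, 165 and 141. Summed over the 4 libraries, the 2 highest members had overlapping intervals, RPL7 at 26.2 (24.5 to 28.1) and RPL28 at 24.5 (22.8 to 26.3).

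At the other end stood RPL34, RPL31, RPL38, RPL17 and RPL6. RPL34 held 59, 55, 54 and 45 tags. RPL31 held 74, 68, 59 and 52 tags. RPL38, whose protein is known for its part in translating Hox mRNAs in mice, held 72, 82, 69 and 55. The levels of RPL34 were the lowest of any member in all libraries but sgFLI1, where RPL17 had the same 54 tags. Summed over the libraries, RPL34 stood at 6.94 (6.04 to 7.94) and RPL31 at 8.25 (7.26 to 9.33), so that these neighbours overlapped, while both intervals lay far below those of the 5 highest members.

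The position of the summit is given from the start site, with upstream positions negative. Over all members the median was −84.5, −72, −86 and −76 bases. The summit was upstream in 66, 64, 67 and 62 of 74 members, against 67.8% to 69.3% of all listed promoters. It was within 100 bases of the start in 45, 42, 42 and 42 of 74 members, against 43.9% to 44.6% of all listed promoters. In the 5 highest members it lay from −523 bases (RPL7) to −81 bases (RPL13A in WT). RPS19 had its summit at −258, −242, −360 and −350 bases. In the 5 lowest members it lay from −157 bases (RPL34 in sgFLI1) to 24 bases downstream (RPL17 in WT-IFN-γ). Across libraries the position of 1 member's summit ranged over a median of 73.5 bases, and over at most 100 bases in 48 of 74. RPL3 had the widest range, 247 bases. The sources used here do not say if tag ends were shifted for the transposase, on which the exact base of a summit depends. Median peak width was 1063.5, 1011, 948 and 940.5 bp, against 1115, 1093, 1049 and 1047 over all listed promoters.

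With IFN-γ the family's median ratio was that of promoters in general. In WT cells the median log2 ratio of WT-IFN-γ over WT was −0.08 for the 74 members and −0.08 for the 10799 promoters with a peak in all 4 libraries. In FLI1-KO cells the ratio of sgFLI1-IFN-γ over sgFLI1 was −0.17 for members and −0.16 for all. The offset depended on the scaling in WT cells, where the median of the members was 0.05 when tags were divided by the library background alone. In FLI1-KO cells it was −0.14 under that scaling. Summed over members, the libraries held 10261, 10542, 8653 and 7670 tags. This gave a ratio of 0.935 (95% counting interval 0.910 to 0.961) in WT cells and 0.896 (0.868 to 0.924) in FLI1-KO cells. Divided by the median ratio of all promoters these became 0.991 and 1.00317. The spread of the members' log2 ratios was no wider than counting allows, with an SD of 0.17 against 0.18 expected from the tags in WT cells and 0.20 against 0.20 in FLI1-KO cells. The same held over all 10799 promoters, with 0.226 against 0.227 and 0.229 against 0.255.

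In WT cells 0 of 74 members stood 1.5-fold higher and 0 stood 1.5-fold lower with IFN-γ, where 1.01% and 1.21% of all promoters did. In FLI1-KO cells the counts were 0 higher and 2 lower, where 0.407% and 2.72% of all promoters were, so that the members' count was near the background. The pair was RPS12 and RPL36. RPS12, a small subunit gene that also hosts 3 snoRNAs, had 166, 145, 175 and 114 tags, a ratio of 0.658 (0.515 to 0.838) in FLI1-KO cells. RPL36, a large subunit gene, had 152, 141, 115 and 72 tags, a ratio of 0.633 (0.465 to 0.857). Both ratios were below 1 in either genotype, with 0.795 (0.632 to 0.9994) for RPS12 and 0.844 (0.667 to 1.07) for RPL36 in WT cells.

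RPL5 and RPL11, which bind MDM2 when ribosome assembly fails and so link it to p53, had unlike values. RPL5 had 138, 185, 167 and 129 tags. RPL11 had 97, 85, 76 and 81. With IFN-γ, the level of RPL5 stood at 1.22 times the untreated one in WT cells (0.973 to 1.53) and at 0.781 in FLI1-KO cells (0.615 to 0.988), and that of RPL11 at 0.798 (0.589 to 1.08) and 1.08 (0.778 to 1.49). Of these 4 intervals, that of RPL5 in FLI1-KO cells alone left out 1. On the log2 scale it ran from −0.70 to −0.02, which held the median of all promoters in that comparison, −0.16. Intervals of other members, such as RPS12 and RPL36, left out 1 there too. RPL13A stood at 0.901 (0.739 to 1.099) and 0.972 (0.771 to 1.22). RPLP0, RPLP1 and RPLP2 form the stalk that binds elongation factors. RPLP0 had 150, 180, 148 and 121 tags, RPLP1 had 82, 93, 89 and 68, and RPLP2 had 160, 196, 160 and 140. For all 3 the ratio lay above 1 in WT cells, at 1.09, 1.03 and 1.12, and below 1 in FLI1-KO cells, at 0.826, 0.772 and 0.884, and all 6 intervals held 1. In WT cells 22 of the 74 members and 3429 of the 10799 promoters with a peak in all 4 libraries had a ratio above 1. In FLI1-KO cells 59 members and 8354 promoters had a ratio below 1, so most promoters shared that direction with the stalk genes.

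**Figure D4:**
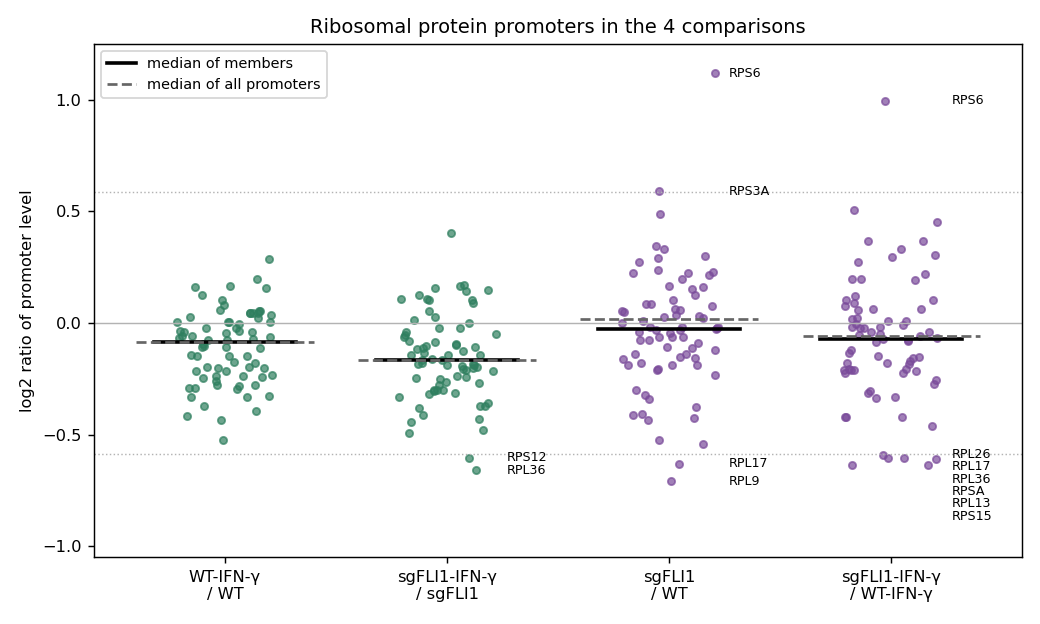
log2 ratio of promoter level for each of the 74 members in the 4 comparisons, with the members' median (solid bar), the median of all promoters with a peak in all 4 libraries (dashed bar) and dotted lines at 1.5-fold. Members past 1.5-fold are named in order of their ratio; with IFN-γ they are RPS12 and RPL36 in FLI1-KO cells, and between genotypes RPS6 stands above all others at 1.12 and 1.00.

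Between genotypes the medians were also near those of all promoters, and the members spread more widely than with IFN-γ, as promoters in general did. The median log2 ratio of sgFLI1 over WT was −0.03 for members and 0.02 for all promoters, and that of sgFLI1-IFN-γ over WT-IFN-γ was −0.07 and −0.06. The summed tags gave 0.978 (0.951 to 1.01) and 0.937 (0.910 to 0.965). The SD of the members' log2 ratios was 0.28 against 0.19 expected from counting in the untreated pair and 0.29 against 0.19 in the treated pair. Over all promoters it was 0.32 against 0.24 and 0.31 against 0.24. The 2 genotype comparisons use different libraries, 2 of each genotype. Across the 74 members their log2 ratios had a Pearson r of 0.598, or 0.491 without RPS6, and across all 10799 promoters it was 0.482, as a description of promoters that share libraries. In the untreated pair 2 of 74 members were 1.5-fold higher in FLI1-KO cells and 2 were lower, where 2.73% and 3.54% of all promoters were. In the treated pair 1 was higher and 6 were lower, where 1.85% and 4.64% of all promoters were. Cell type markers also differed between genotypes: the log2 ratio of KRT17 was −0.57 untreated and −1.46 treated, and that of EPCAM −0.46 and −0.72. The 3 squamous markers with a peak only within 3 kb went both ways, KRT5 with 32, 32, 51 and 50 tags, CDH1 with 38, 42, 33 and 31 and TP63 with 14, 15, 11 and 12. Their part in the members' ratios was not tested.

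RPS6 encodes the small subunit protein that S6 kinase phosphorylates downstream of mTOR. It had 70 and 73 tags in the WT libraries but 131 and 113 in the FLI1-KO libraries. Both FLI1-KO libraries were above both WT libraries, though their overall tag density was lower. The level ratio was 2.17 (1.61 to 2.95) in untreated and 1.99 (1.47 to 2.71) in IFN-γ-treated cells. RPS6 lies on the short arm of chromosome 9, at chr9:19375715-19380236. The other peaks within 5 Mb of its start moved with it: their median log2 ratio was 0.84 over 58 peaks and 0.73 over 59 peaks, against 1.12 and 1.00 for RPS6. After division by this regional median, 0.28 and 0.27 remained. The 3 other members on chromosome 9 lie on its long arm, where the regional medians were −0.21 to −0.30. RPL35 had 204, 168, 130 and 115 tags, a genotype ratio of 0.739 (0.589 to 0.926) untreated and 0.882 (0.689 to 1.13) treated. RPL12 had 198, 177, 127 and 166 tags, a ratio of 0.744 (0.591 to 0.935) untreated but 1.21 (0.972 to 1.502) treated. Divided by the regional median, its treated log2 ratio was 0.56, the highest of any member in that pair. RPL7A had 131, 140, 115 and 105 tags, with ratios of 1.02 and 0.966.

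The members at least 1.5-fold lower in FLI1-KO cells lay in regions whose median log2 ratio was itself below 0. Smaller ratios did not all lie on the side of their region: in the untreated pair RPL3 had a log2 ratio of −0.30 in a region at 0.07, and RPL23A had −0.21 in a region at 0.08. As ratios these were 0.811 (0.628 to 1.05) and 0.866 (0.694 to 1.08), and both intervals held 1. RPL17, on chromosome 18 at chr18:49488453-49492508, had 97, 90, 54 and 46 tags, with ratios of 0.646 (0.454 to 0.910) and 0.658 (0.451 to 0.949), and the median log2 ratio of the peaks around it was −0.22 and −0.40. RPSA, a small subunit protein also known as the laminin receptor, had 164, 181, 97 and 92, with ratios of 0.686 (0.528 to 0.887) and 0.655 (0.504 to 0.846) and regional medians of −0.07 and −0.22. RPL9 had 165, 148, 87 and 95. Its ratio was 0.612 (0.466 to 0.798) untreated and 0.827 (0.632 to 1.08) treated. RPL13 had 157, 164, 102 and 82, and its ratio in treated cells was 0.644 (0.488 to 0.845). In the treated pair RPL26 had 221 tags in WT and 114 in FLI1-KO cells, RPS15 had 144 and 72, and RPL36 had 141 and 72. RPL26, another known p53 regulator, had a ratio of 0.665 (0.525 to 0.837) there.

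RPS3A was the other member at least 1.5-fold higher in FLI1-KO cells. It had 94, 89, 122 and 98 tags, a ratio of 1.51 (1.14 to 1.99) in untreated and 1.42 (1.05 to 1.91) in treated cells. Averaged over both pairs, the highest log2 ratios were those of RPS6 at 1.06, RPS3A at 0.55 and RPL21 at 0.27, and the lowest those of RPL17 at −0.62, RPSA at −0.58 and RPL13 at −0.52. RPL21, the only member on chromosome 13, had 137, 153, 150 and 136 tags.

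Once each genotype ratio was divided by the median of the other peaks within 5 Mb, no member stood past 1.5-fold. The count was 0 higher and 0 lower in either pair, where 1.43% and 2.55% of all promoters were higher and lower in the untreated pair and 1.71% and 2.36% in the treated pair. The SD of the members' log2 ratios was then 0.20 and 0.21, close to the 0.19 that counting gives in both pairs, and 0.28 and 0.27 over all promoters. The correlation between the pairs was then 0.230 in place of 0.598. Member ratio and regional median had a Pearson r of 0.687 in untreated and 0.708 in treated cells, over 74 members that share 4 libraries. Chromosome 19 carries 12 members, more than any other chromosome, and 9 of them in the untreated and 11 in the treated pair had a log2 ratio below 0. The medians of these 12 were −0.19 and −0.20, and those of all shared peaks of chromosome 19 were −0.19 over 1551 peaks and −0.23 over 1604. All 3 members of chromosome 16 (RPS2, RPS15A and RPL13) were also below 0 in both pairs, with medians of −0.41 and −0.34, and the chromosome's peaks had −0.25 and −0.33. The cause of these regional ratios was not tested, and with 1 library for each genotype and treatment a difference between the lines and an effect of the knockout cannot be told apart.

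**Figure D5:**
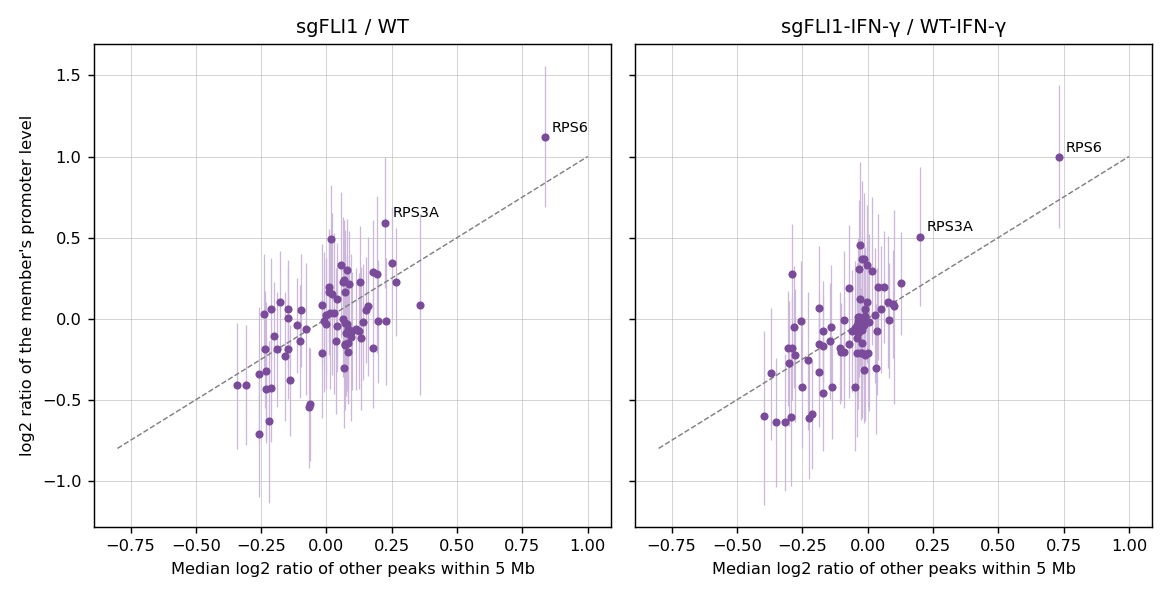
log2 genotype ratio of each member's promoter level against the median log2 ratio of the other peaks within 5 Mb of its start, in untreated (left) and IFN-γ-treated (right) cells. Bars are 95% counting intervals and the dashed line marks equal values; RPS6 lies at the upper right in both panels, with regional medians of 0.84 and 0.73.

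Members with the ETS letters did not stand apart in the genotype comparison. For the 25 with CCGGAAG the median log2 ratio of sgFLI1 over WT was −0.02, and for the 49 without it −0.04. In IFN-γ-treated cells the medians were −0.02 and −0.09. After division by the regional median they were −0.08 and −0.03 in untreated and 0.00 and 0.00 in treated cells. RPS6 is the highest of the 25, and RPL9 is the lowest of the 49 in the untreated pair.

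Other genes of the protein synthesis machinery were set beside the family. The 78 mitochondrial ribosomal protein genes, whose ribosome serves the organelle's own mRNAs, had a promoter peak in all 4 libraries in 76. Their median level was 12.3, 11.7, 13.3 and 12.03, against 12.2, 11.4, 12.1 and 11.1 for all promoters and 17.8, 15.95, 16.6 and 15.1 for the cytosolic members. The 22 other genes known for a 5′ TOP start, such as EEF1A1 and PABPC1, all had a peak in all 4 libraries, with medians of 16.8, 16.7, 17.96 and 16.04. EEF1A1, an elongation factor, had 194, 199, 246 and 220 tags, and EEF2, another, had 137, 147, 76 and 88. The X-linked genes RPL10, RPL36A, RPL39 and RPS4X, left out by the rule, also had a peak in each library, from 55 tags (RPL36A in sgFLI1) to 180 (RPL10 in WT). FAU, which encodes RPS30 fused to a ubiquitin-like protein, had 97 tags in WT. Among paralogs, RPL22L1, RPL26L1, RPL39L, RPL7L1, RPL36AL and RPS27L had a peak in every library. The muscle paralog RPL3L had none, and the testis paralog RPL10L had 1 of 12 tags in sgFLI1 only.

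Ribosomal protein mRNAs have been copied back into the genome many times, and these copies give a contrast to the parent promoters. Of 1439 annotated processed pseudogenes of ribosomal protein genes, 1367 lay more than 2 kb from any protein-coding start. A peak summit lay within 1 kb of the start of 25, 39, 30 and 28 of them in the 4 libraries, and of 15 in all 4. These are 1.83%, 2.85%, 2.19% and 2.05%, the first with a Wilson interval of 1.24 to 2.69. For all 8926 processed pseudogenes so placed, the shares were 2.49%, 2.88%, 2.83% and 2.74%. Reads that map equally well to several places are lost when low mapping quality is filtered, and how many copies this affects was not tested.

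The genes behind the promoters were short and crowded. Their median length was 5212 bp, against 27877 bp for all protein-coding genes. Within their span, on the same strand, 26 of the 74 held at least 1 annotated snoRNA, 58 in all, against 1.22% of all genes. RPL4 held 5, and RPL13A, RPL7A and RPL23A held 4. The start of another gene on the opposite strand lay within 1 kb in 27 members (36.5%), against 19.3% of all genes, as with RPL12 and LRSAM1 or RPL7A and MED22. For these members a peak cannot be assigned to 1 of the genes. Their median mean level was 16.8, against 15.7 for the 47 others.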

How the data were processed

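Per the study's methods and the submitters' processing notes, Trimmomatic 0.3 was used by the authors for trimming and Bowtie2 2.3.4.1 for alignment to GRCh38. They removed alignments of mapping quality under 30 and duplicates, and called peaks with MACS2 2.1.2 at a q-value cutoff of 0.05. The methods name an IDR filter between replicates; whether a list comes from before or after it, or from pooled replicates, is not given in the sources used here, and each list was treated as 1 library. The deposited columns, in the format that the authors' peak caller writes, hold for each summit a score (not used here), the fold enrichment (a ratio) over local background, and p and q as −log10 values. Fold and −log10 p together returned a whole-number summit pileup, the tag count, for 100% of peaks. The smallest background and the shortest peak of a list gave its background and tag extension (249 to 274 bp), and their ratio the tags per kb.

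A promoter peak was the peak of highest pileup with its summit within 1 kb of the Ensembl canonical start of GENCODE release 44, the build being that of the files (0 peaks ended beyond a chromosome). Intervals are 95%: exact Poisson for tags, exact conditional binomial (Clopper-Pearson) for ratios, Wilson for shares. Intervals of medians, used in the checks under other settings, are binomial intervals on the ranked values of the members. Regional medians rested on peaks with a single partner in the other list, with over 60 summed tags and at least 20 of them within 5 Mb. The SD expected from counting is the root of the mean of 1/a + 1/b over members, on the log2 scale.

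The members, the gene lists and the rule for named genes were chosen with earlier results of these data known. That rule took the 5 highest and 5 lowest mean levels, members 1.5-fold apart in any comparison, those on chromosomes 9, 13, 16 and 18, the 3 highest and 3 lowest mean genotype ratios, and RPS6, RPL5, RPL11, RPL13A, RPSA and RPLP0 to RPLP2. Promoters with a peak in all 4 libraries were added as a second comparison set for motifs after the data had been seen. Sequences of members on chromosome 8 (RPL7, RPL8, RPL30, RPS20) are not reported here. Single values of 4 further members are not reported here; they stay in the counts and medians of the family. The steps were tested on simulated data. Scripts ran in Python 3.11.15 (pandas 2.3.3, numpy 2.4.6, scipy 1.17.1), with figures by matplotlib 3.10.9.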

Additional observations from a re-analysis of the deposited data

How the results depend on the processing

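Of 182 values recomputed under other settings, 144 kept their direction and stayed within the interval of the main value, or within 1.5 times a count. That interval came from the ranked members for medians, from counting for summed tags and from Wilson for shares. A window of 500 bp or 3 kb, a −log10 q of at least 10, and leaving out RPS19BP1 and the read-through genes kept all of theirs within these limits. A window of 500 bp left 73 of 74 members with a peak in all 4 libraries; at 3 kb, or at that q, 74 had one. The scaling decided the sign of small ratios. Divided by the library background alone, the median level was 65.1, 64.1, 64.1 and 59.2 times it, the IFN-γ ratio in WT cells turned to 0.0544 (median log2) and 1.03 (summed), the untreated genotype ratio moved to 0.0529 and 1.04, and 1 member each was lower in FLI1-KO cells with IFN-γ and between untreated genotypes. With local background subtracted, median levels were 15.5, 13.9, 14.5 and 13.3. Divided by the median ratio of all promoters, the median log2 ratios were −0.000193 in WT and −0.00234 in FLI1-KO cells with IFN-γ and −0.0135 between treated genotypes. The summed ratios there were 0.991, 1.00 and 0.976, the second of them reversed to just above 1. Between untreated genotypes the summed ratio was 0.965 (0.938 to 0.993), whose interval alone left out 1. After this division 0 members were lower in either comparison of sgFLI1-IFN-γ, with 1 higher between untreated genotypes. Divided by the median of peaks within 5 Mb, 0 members were past 1.5-fold and the treated genotype median was −0.000397. At a fold of 1.25, with IFN-γ 8 members were lower in WT cells, and 12 lower and 1 higher in FLI1-KO cells. Between genotypes 10 were lower and 5 higher untreated, and 12 lower and 6 higher treated. The share of all promoters at this fold was not computed, so these counts have no background beside them. The median log2 ratio of all promoters was −0.08 (WT) and −0.16 (FLI1-KO) with IFN-γ. Between genotypes it was 0.02 untreated and −0.06 treated. With any annotated start, 1 member was lower in FLI1-KO cells with IFN-γ. From 100 bases before the start, SP1 letters were in 45.9% of members. They were then in 49.9% of all promoters and in 62.6% of those with a peak in all 4 libraries. CCAAT was in 22.97% of members, against 22.7% and 24.5%. The shorter window thus lowered the shares in the comparison sets as well. CCGGAAG was then in 27.0% (18.2 to 38.1) of members, against 16.7% of promoters with a peak in all 4 libraries.

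No paired analysis was possible because each group held 1 library. Leaving out a replicate was not possible for the same reason. Depth limits the low members most: RPL34, with 45 to 59 tags, had a genotype ratio of 1.06 with an interval of 0.720 to 1.56, so a ratio had to be near 1.5-fold for its interval to leave out 1.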
